A study of Mus musculus with 6 samples.

Results

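Type I interferon-stimulated genes are genes whose transcription rises when a cell senses alpha or beta interferon. A list of 38 of them was followed through the table of 25759 genes, chosen by name, with the Ifi200 family and the guanylate-binding proteins left out. Every listed gene was found, and the 34 with a mean of at least 1 FPKM over the 6 libraries were tested, while Oas2, Oasl1, Mx1 and Rsad2 lay below that level. FPKM scales fragments to transcript length and library size, so it allows levels to be compared between genes.

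The RNA came from adaptive regulatory T cells, called aTreg: T helper cells in which activation together with TGF-beta has turned on the transcription factor Foxp3. Mixed lymph node and spleen cells of C57BL/6 mice aged 8 to 12 weeks, all carrying the Foxp3GFP reporter, were cultured for 3 days with IL-2 (10 ng/ml), TGF-beta (3 ng/ml) and the mitogen ConA (2 ug/ml), and cells positive for CD4 and GFP were sorted. The 3 wild type (WT) libraries came from normal B6 mice and the 3 BMPR1a-deficient libraries from BMPR/CD4cre mice. In the latter a Cre driven by Cd4, which acts in T cells generally and not only in regulatory T cells, removes the bone morphogenetic protein receptor BMPR1a. Both groups saw the same TGF-beta and IL-2, and the protocol given names no interferon. Whether replicates are separate mice or cultures is not stated in the labels. The p-values therefore describe the spread among these 6 libraries alone, which may be technical.

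Interferon bound to its receptor IFNAR activates the kinases JAK1 and TYK2, which phosphorylate transcription factors of the STAT family. These join IRF9 in a complex that binds the interferon-stimulated response element (ISRE) in the promoters of its targets. The targets include sensors of viral RNA, enzymes that degrade RNA or stop translation, proteins that block viral entry or budding, and feedback inhibitors such as USP18. T cells keep a low level of this programme without infection, and interferon gamma can induce part of it through another site, the GAS.

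BMPR1a-deficient replicate 1 stood apart from the other libraries. Its mean correlation with the others was 0.8875, against 0.9008 to 0.9101 for the remaining 5 libraries. The 13 mitochondrially encoded mRNAs had a mean difference of -3.43 from the WT mean there on the log2(FPKM + 1) scale, against -0.20 in each of replicates 2 and 3. Bmpr1a itself was at 1.39, 2.34 and 1.31 FPKM in WT and at 0.439, 0.720 and 0.691 in the deficient libraries, so the groups did not overlap, and its log2 fold change was -0.71 (SE 0.195, limma adjusted p = 0.183). Cd4 (329 to 436 FPKM) and Foxp3 (49.4 to 96.9 FPKM), on which the sort rests, were present in every library. Cd3e was at 225, 194 and 218 FPKM in WT and at 118, 259 and 252 FPKM in the deficient libraries. Of the 9 listed CD4 and regulatory T cell markers none had a limma adjusted p under 0.05. Ctla4 (238 to 275 FPKM in WT, 103 to 204 in deficient libraries) and Cd3g were lower without overlap. Ikzf2 (21.4 to 32.9 and 42.5 to 51.1 FPKM) was higher without overlap, and the other markers overlapped. The table holds no fragment counts. In single-transcript genes the most frequent low value of FPKM times length was taken as about 1 fragment. Within a preset search range this pointed to about 29500000 to 38900000 fragments per library.

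The promoters come first, to show which of these genes hold the core letters of the ISRE close to the start. RefSeq promoter windows (GRCm38.p6), from 250 bases before the start to 50 after it, were at hand for 29 of the 38 genes. The ISRE core was searched as GAAA, 2 bases of any kind and GAAA again, and the GAS as TTCNNNGAA, each on both strands, and cores may overlap each other. Of these 29 genes 14 (48.3%) held the ISRE core in a window, against 3.99% of 27025 genes with a window. The GAS letters were in 8 of 29 (27.6%), against 9.55%. A match is a description of letters and not evidence that a factor binds there. The bases before the start are printed 5' to 3' along the gene, with both motifs in capitals, for the 3 genes whose levels passed the test. These are Apol9a (chr15:77411119-77411330, minus strand), Apol9b (chr15:77728822-77729055, plus strand) and Isg20 (chr7:78913174-78913423, plus strand, the most upstream of 3 RefSeq starts). GENCODE places the start of both Apol9 genes further upstream than RefSeq, so their lines stop 5 bases after the last ISRE core, with 17 bases inside the GENCODE gene.
Apol9a: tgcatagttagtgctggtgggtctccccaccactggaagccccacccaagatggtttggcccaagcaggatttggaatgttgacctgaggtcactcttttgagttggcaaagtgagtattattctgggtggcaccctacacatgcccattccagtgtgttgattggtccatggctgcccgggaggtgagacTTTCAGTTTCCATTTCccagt
Apol9b: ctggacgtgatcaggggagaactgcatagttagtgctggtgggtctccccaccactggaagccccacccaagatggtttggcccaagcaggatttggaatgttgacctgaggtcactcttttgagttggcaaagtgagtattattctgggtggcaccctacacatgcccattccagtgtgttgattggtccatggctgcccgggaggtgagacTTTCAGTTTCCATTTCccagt
Isg20: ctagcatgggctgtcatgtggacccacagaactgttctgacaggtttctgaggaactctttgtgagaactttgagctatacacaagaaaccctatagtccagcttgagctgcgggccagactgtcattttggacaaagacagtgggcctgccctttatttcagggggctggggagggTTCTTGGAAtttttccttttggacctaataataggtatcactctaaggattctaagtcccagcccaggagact
Apol9a and Apol9b carried the same pair of overlapping ISRE cores, at offsets -59 and -53 from the more upstream of 2 RefSeq starts in Apol9a and -37 and -31 in Apol9b. From the other start the offsets are -105 and -99 in Apol9a and -86 and -80 in Apol9b. Their windows were identical over 278 paired bases. Isg20 had no ISRE core in any of its 3 windows and had GAS letters at offset -73. The next lines show the ISRE cores of 5 other listed genes with 5 bases on each side, to set beside the pair in Apol9a and Apol9b.
Isg15: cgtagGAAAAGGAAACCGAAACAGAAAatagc
Ifit1: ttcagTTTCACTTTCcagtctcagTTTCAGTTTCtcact
Oas1a: ctcggGAAATGGAAACTGAAAatcta
Oas3: gaggaGAAAACGAAAgtgaa
Eif2ak2: gccggGAAAACGAAAcagaa
The cores began at offset -78 in Isg15, -104 in Ifit1, -20 in Oas1a and -75 in Oas3, and at 18 in Eif2ak2, inside the transcribed part. Of the 7 lower genes without overlap between groups that had a window, 3 held the core, so members with and without these letters lay on the lower side.

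The levels covered more than 3 orders of magnitude, and the order was led by Ifi27l2a, a small mitochondrial protein gene, with a mean of 743 FPKM. Samhd1, whose product degrades deoxynucleotides, followed at 559 FPKM and the nuclear body gene Sp100 at 268 FPKM. Ifi47 and Irf1 came next at 247 and 231 FPKM. Ifi27l2a was above Samhd1 in each library, while the values of Sp100, Ifi47 and Irf1 overlapped. At the other end Mx1, Oas2, Rsad2 and Oasl1 had means of 0.748, 0.588, 0.531 and 0.514 FPKM. In all 5 genes had a mean above 100 FPKM, 15 lay from 10 to 100 and 18 under 10. Much-used markers of an interferon response such as Isg15 (8.84 FPKM), Ifit1 (4.48) and Mx1 were thus among the low genes, and genes such as Irf1, Samhd1 and Ifi47 among the high ones.

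**Figure D1:**
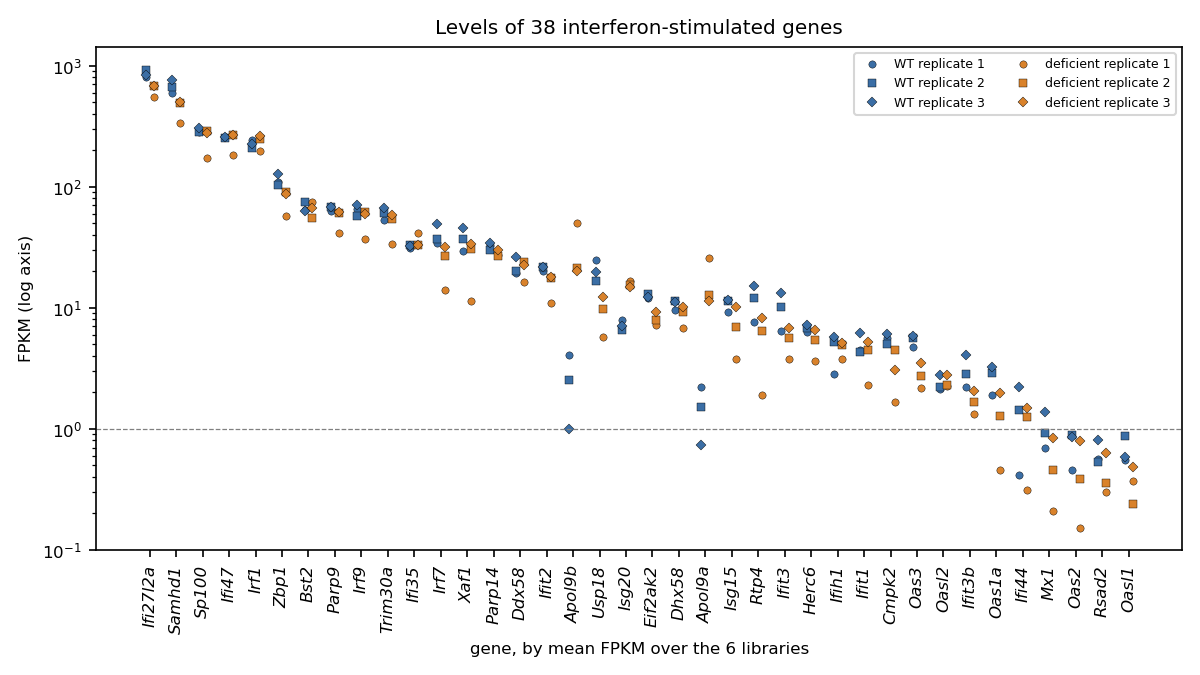
FPKM on a log axis of the 38 interferon-stimulated genes in each of the 6 libraries (WT blue, BMPR1a-deficient orange, one symbol per replicate), ordered by mean; the dashed line marks 1 FPKM, the mean needed for testing. Apol9a, Apol9b and Isg20 are the genes whose orange points all lie clearly above the blue ones, and the orange circles of replicate 1 are the lowest point for most other genes.

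In BMPR1a-deficient aTreg Apol9a, Apol9b and Isg20 were called higher, and no tested gene of the list was called lower. Most of the others had lower values that did not pass the threshold. In the limma fit over 13413 genes at an adjusted p under 0.05, 3 of the 34 tested members (8.82%) passed, against 1.07% of all genes. These 3 were higher, against 0.746% of all genes. Apol9a and Apol9b among them share 98.5% of 1529 paired transcript bases, so their calls may not be independent. None of the 34 was lower, against 0.321% of all genes. At an unadjusted limma p under 0.05, 11 of the 34 were lower (32.4%, against 5.87% of all genes) and 3 were higher (8.82%, against 9.29%). Fold changes here are deficient minus WT on the log2(FPKM + 1) scale, which understates the change of low genes. In bulk libraries fewer cells that express a gene and less RNA per cell cannot be told apart.

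Apol9a and Apol9b, closely related apolipoprotein L genes on chromosome 15 that interferon induces, had the largest differences among the tested members. Apol9b (77729039 to 77736382, GRCm38) was at 4.05, 2.55 and 0.996 FPKM in WT and at 49.9, 21.3 and 20.3 FPKM in the deficient libraries. Every deficient value lay far above the WT values, and replicate 1 was the highest. The means were 2.53 ± 1.53 and 30.5 ± 16.8 FPKM (SD, n = 3), a log2 fold change of 3.13 (SE 0.467, limma adjusted p = 0.0495). Apol9a (77403789 to 77411135) was at 2.21, 1.51 and 0.741 FPKM in WT and at 25.8, 12.6 and 11.3 FPKM in the deficient libraries, a log2 fold change of 2.77 (SE 0.364, limma adjusted p = 0.0380). The longest annotated transcript had 4246 bases in Apol9a and 1573 in Apol9b. In the most similar pair of transcripts 98.5% of 1529 paired bases were identical, so how the fragments were divided between the 2 genes is uncertain. Their summed FPKM does not depend on that division in the same way, and was 6.26, 4.06 and 1.74 in WT and 75.7, 33.95 and 31.6 in the deficient libraries. The ratio of Apol9b to Apol9a stayed between 1.34 and 1.94 over the 6 libraries. Without BMPR1a-deficient replicate 1 the log2 fold changes were 2.42 for Apol9a (limma adjusted p = 0.0423) and 2.73 for Apol9b (adjusted p = 0.0666). With any single library left out Apol9b did not pass in any of 6 fits, and Apol9a passed in 1, the one without that replicate. Apol9b also missed the threshold with a pseudocount of 0.1 or 0.5, without the filter on low values, with upper-quartile scaling, with quantile normalization and with eBayes without trend (limma adjusted p from 0.0505 to 0.0859). Apol9a missed it without the filter (limma adjusted p = 0.0683). With the replicate number as a block both missed it (limma adjusted p = 0.0538 for Apol9a and 0.0564 for Apol9b).

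Isg20, which encodes an exonuclease that degrades single-stranded RNA, was the most even of the 3 (chromosome 7, 78913424 to 78920396). WT libraries had 7.91, 6.53 and 7.04 FPKM, and deficient libraries had 16.6, 15.4 and 14.97 FPKM. The deficient libraries differed little from each other, and replicate 1 did not stand apart for this gene. The log2 fold change was 1.03 (SE 0.1005, limma adjusted p = 0.0172), and 0.99 without replicate 1 (limma adjusted p = 0.0324). Of the 6 fits with 1 library left out it passed in 2, the other being the one without WT replicate 1 (limma adjusted p = 0.0487). With the replicate number as a block Isg20 did not pass (limma adjusted p = 0.102).

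**Figure D2:**
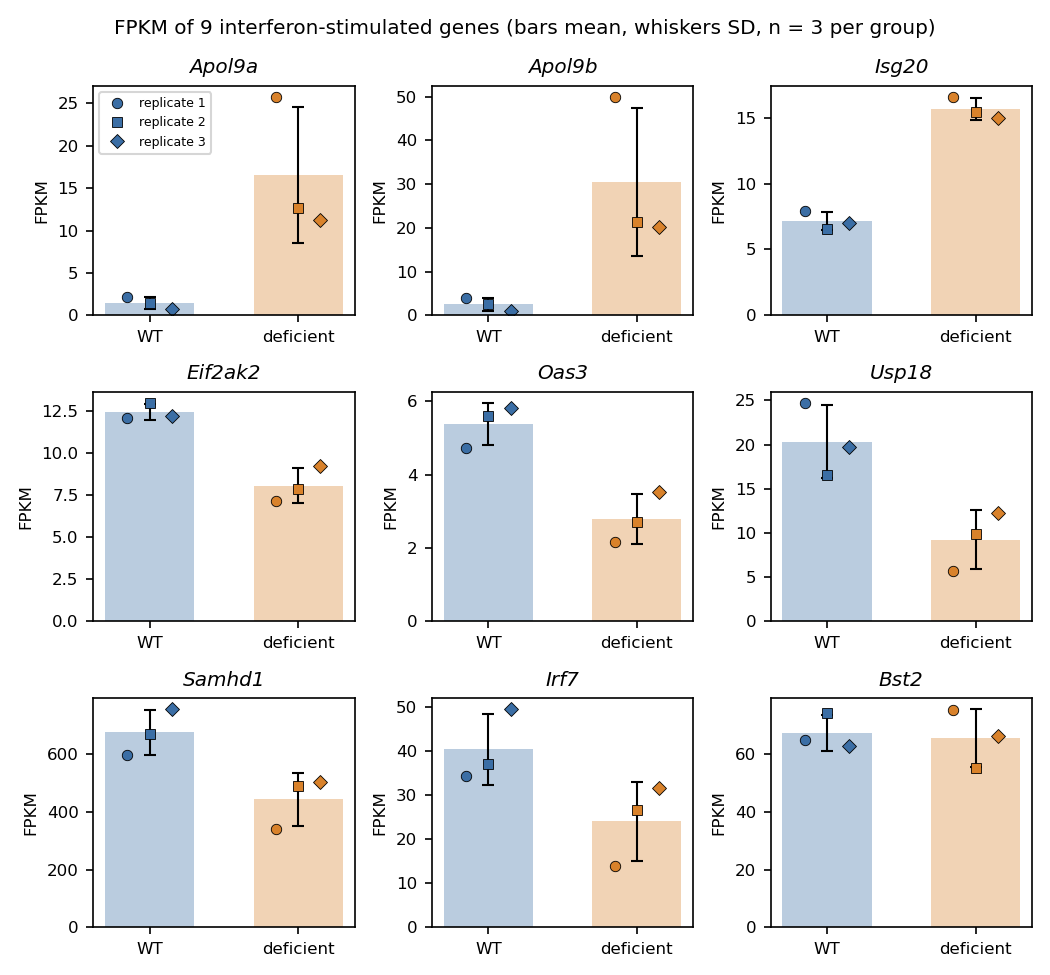
FPKM of 9 interferon-stimulated genes, with linear axes from 0; bars are means, whiskers SD, n = 3 per group, and symbols the single libraries. Isg20 is even within groups, Apol9a and Apol9b are highest in BMPR1a-deficient replicate 1, the 5 genes from Eif2ak2 to Irf7 lie lower in the deficient group without overlap, and Bst2 overlaps.

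The groups did not overlap for 12 lower members of 34 (35.3%), against 10.4% of all genes, and for 3 higher members (8.82%), against 15.9%. The 3 higher ones are the genes past the threshold, and the 12 lower ones are spread over every role, as given next. None of these 12 passed the threshold (limma adjusted p of 0.0914 or more).

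Of the IFIT proteins, IFIT1 binds viral RNA that lacks the methylation of host caps and blocks its translation. All 4 IFIT genes on chromosome 19 had negative fold changes. Ifit2, the highest of them, was at 20.2, 21.5 and 21.6 FPKM in WT and at 10.97, 17.7 and 17.8 FPKM in the deficient libraries, a log2 fold change of -0.45 (SE 0.193, limma adjusted p = 0.346). Replicate 1 lay well under the other deficient libraries, and all 3 lay under WT. Ifit3b was at 2.23, 2.85 and 4.04 FPKM in WT and at 1.33, 1.67 and 2.04 FPKM in the deficient libraries, also without overlap. Ifit3 shared 98.0% of 1697 paired transcript bases with Ifit3b, so their division is uncertain too. The sum of Ifit3 and Ifit3b was 8.60, 12.9 and 17.4 FPKM in WT and 5.10, 7.25 and 8.81 FPKM in the deficient libraries, where the highest deficient value just exceeds the lowest WT one. Ifit1 overlapped, with a log2 fold change of -0.30.

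The OAS enzymes make an oligoadenylate messenger that activates the RNA-degrading RNase L, and PKR, the product of Eif2ak2, stops translation when it binds double-stranded RNA. Eif2ak2 (chromosome 17, 78852564 to 78882573) was the gene closest to the threshold on the lower side. It was at 12.1, 12.98 and 12.2 FPKM in WT and at 7.13, 7.86 and 9.22 FPKM in the deficient libraries. Every deficient library lay below WT by more than the spread within either group. The log2 fold change was -0.57 (SE 0.111, limma adjusted p = 0.0914), and -0.50 without replicate 1 (adjusted p = 0.0872). It passed with quantile normalization (limma adjusted p = 0.0415) and with a GC correction (adjusted p = 0.0385). Oas3 was at 4.72, 5.60 and 5.80 FPKM in WT and at 2.17, 2.71 and 3.52 FPKM in the deficient libraries, a log2 fold change of -0.76 (SE 0.162, limma adjusted p = 0.111). Its deficient mean was 52.1% of the WT mean, and 58.0% over replicates 2 and 3 alone. Oas1a had the same fold change of -0.76 with overlap, and its transcript shares 97.7% of 1859 paired bases with Oas1g. Oasl2 was level, at 2.37 ± 0.334 FPKM in WT and 2.45 ± 0.307 in deficient aTreg (SD, n = 3).

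The sensors recognise foreign or misplaced nucleic acid inside the cell. Zbp1, which binds Z-form nucleic acid, was the highest, at 109, 103 and 128 FPKM in WT and 57.0, 90.6 and 86.5 FPKM in the deficient libraries. The groups did not overlap (log2 fold change -0.56, limma adjusted p = 0.301). The RNA helicase genes lay closer to WT. Ddx58, which encodes RIG-I, was at 21.9 ± 3.80 and 20.9 ± 4.09 FPKM, and Ifih1, which encodes MDA5, at 4.62 ± 1.55 and 4.60 ± 0.728 (SD, n = 3). Dhx58, which encodes LGP2, was at 10.8 ± 1.01 and 8.72 ± 1.78 FPKM.

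Among the transcription factors Irf7, which amplifies the response, was at 34.4, 37.1 and 49.5 FPKM in WT and at 14.004, 26.6 and 31.5 FPKM in the deficient libraries. The groups were apart, and replicate 1 was the lowest by a wide margin (log2 fold change -0.78, SE 0.314, limma adjusted p = 0.325). Irf9, the DNA-binding subunit of the complex that binds the ISRE, overlapped at 64.4 ± 6.46 and 52.9 ± 14.1 FPKM (SD, n = 3). Sp100 was at 281, 284 and 305 FPKM in WT and at 173, 290 and 276 FPKM in the deficient libraries, with replicate 1 far below WT and the others in or just under its range. Irf1, which interferon gamma also induces, was at 227 ± 17.9 and 236 ± 35.3 FPKM (SD, n = 3).

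ISG15 is a ubiquitin-like tag, HERC6 attaches it in the mouse, and USP18 removes it and also dampens signalling at the interferon receptor. Usp18 had the largest negative fold change of the tested members, at 24.7, 16.5 and 19.7 FPKM in WT and 5.68, 9.84 and 12.3 FPKM in the deficient libraries. The groups did not overlap, and the deficient libraries averaged 45.6% of the WT mean, or 54.4% over replicates 2 and 3. The log2 fold change was -1.09 (SE 0.283, limma adjusted p = 0.163) and -0.81 without replicate 1 (adjusted p = 0.137). Isg15 was at 10.8 ± 1.32 and 6.93 ± 3.15 FPKM, and Herc6 at 6.76 ± 0.455 and 5.20 ± 1.46 (SD, n = 3), and both overlapped.

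Of the antiviral effectors, Samhd1 was at 598, 669 and 756 FPKM in WT and at 339, 489 and 505 FPKM in the deficient libraries, a log2 fold change of -0.62 (SE 0.201, limma adjusted p = 0.250). Each deficient library lay below each WT library. Cmpk2, a mitochondrial nucleotide kinase gene next to Rsad2 on chromosome 12, was at 5.64, 4.99 and 6.06 FPKM in WT and at 1.68, 4.43 and 3.05 FPKM in the deficient libraries (log2 fold change -0.75, limma adjusted p = 0.278). Bst2, which encodes tetherin, a protein that holds budding virus at the cell surface, was level at 67.2 ± 6.17 and 65.5 ± 9.98 FPKM (SD, n = 3). Trim30a overlapped at 60.2 ± 6.72 and 48.5 ± 12.99 FPKM, and its transcript is 88.0% identical to that of Trim30d over 3032 paired bases. Mx1 and Rsad2, below the level for testing, were at 0.696 to 1.37 and 0.534 to 0.809 FPKM in WT and at 0.210 to 0.844 and 0.302 to 0.626 FPKM in the deficient libraries.

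Parp9 and Parp14 encode neighbouring ADP-ribosyltransferases on chromosome 16. Parp9 was at 62.7, 68.1 and 67.9 FPKM in WT and at 41.6, 60.7 and 62.4 FPKM in the deficient libraries, so replicates 2 and 3 lay only just below WT. Parp14 was at 32.8, 30.2 and 34.1 FPKM in WT and at 27.4, 26.7 and 29.9 FPKM in the deficient libraries. Replicate 1 did not stand apart for this gene (log2 fold change -0.20, limma adjusted p = 0.378).

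Of the remaining genes Ifi27l2a was at 801, 923 and 835 FPKM in WT and 547, 677 and 677 FPKM in the deficient libraries, without overlap (log2 fold change -0.43, limma adjusted p = 0.273). Rtp4 and Xaf1 had fold changes of -1.07 and -0.66, and of -0.57 and -0.19 without replicate 1, and both overlapped. In Rtp4 the WT libraries ranged from 7.66 to 14.98 FPKM and the deficient ones from 1.90 to 8.16. Ifi35 (32.2 ± 1.05 and 35.7 ± 4.95 FPKM), Ifi47 (256 ± 4.44 and 238 ± 49.2 FPKM) and Ifi44 (1.35 ± 0.902 and 1.01 ± 0.621 FPKM) overlapped (SD, n = 3). Oas2 and Oasl1 were not tested. Oas2 overlapped, and Oasl1 was at 0.547, 0.863 and 0.584 FPKM in WT and 0.369, 0.239 and 0.484 FPKM in the deficient libraries.

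**Figure D3:**
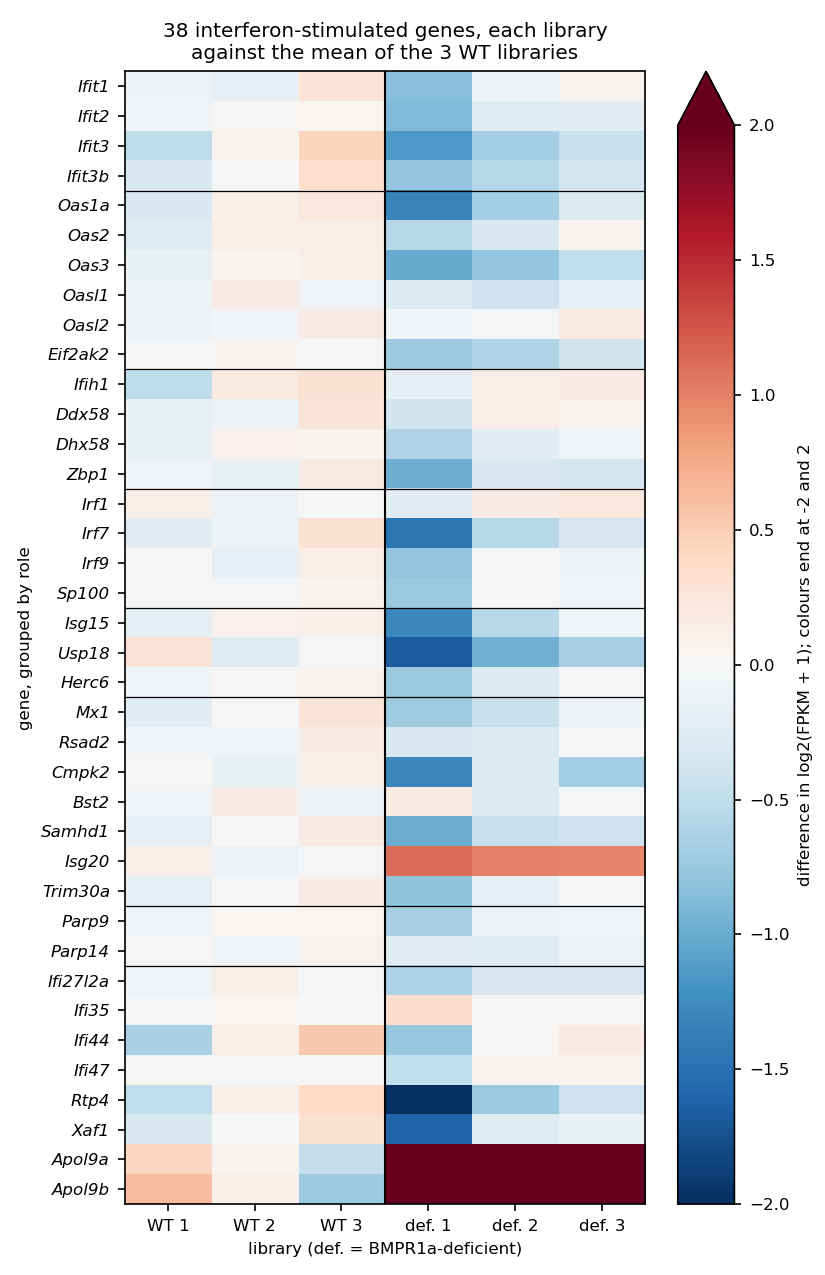
Difference in log2(FPKM + 1) of each gene from the mean of the 3 WT libraries, one row per gene grouped by role and one column per library, with colours ending at -2 and 2. Blue prevails in BMPR1a-deficient replicate 1 and is paler in replicates 2 and 3, while Isg20, Apol9a and Apol9b are red in all 3 deficient libraries.

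The lower values were most marked in one library. The median member stood at 56.5% of its WT mean in BMPR1a-deficient replicate 1, at 83.4% in replicate 2 and at 93.9% in replicate 3. Over all genes tested the same medians were 95.9%, 104.8% and 104.4%. Replicate 1 was the lowest of the 6 libraries for 26 of 34 members (76.5%), against 38% of all genes. WT replicate 3 was the highest for 21 of 34 (61.8%), against 12.7% of all genes, so the WT libraries were not level either. The median log2 fold change of the tested members was -0.32, against 0.04 over all genes, and 27 of 34 (79.4%) were negative, against 44.5% of all genes.

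Without BMPR1a-deficient replicate 1 the median was -0.15, against 0.07 over all genes, and 24 of 34 (70.6%) were negative, against 36.7%. The groups then did not overlap for the same 12 lower members (35.3%, against 13.8% of all genes) and for 5 higher ones (14.7%, against 28.1%), as Irf1 and Ifi47 joined. Leaving out a library can only add to such genes, and on the lower side it added none. Of these 12, Usp18 was the lowest, at 54.4% of the WT mean over replicates 2 and 3, and Parp9 the least changed, at 92.8%. In that fit 2 members were called higher (Apol9a and Isg20) and 0 lower, against 0.999% and 0.567% of all genes. The mitochondrial transcripts that set replicate 1 apart were lower in replicates 2 and 3 as well, by the values given above, and their part in the result was not tested.

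**Figure D4:**
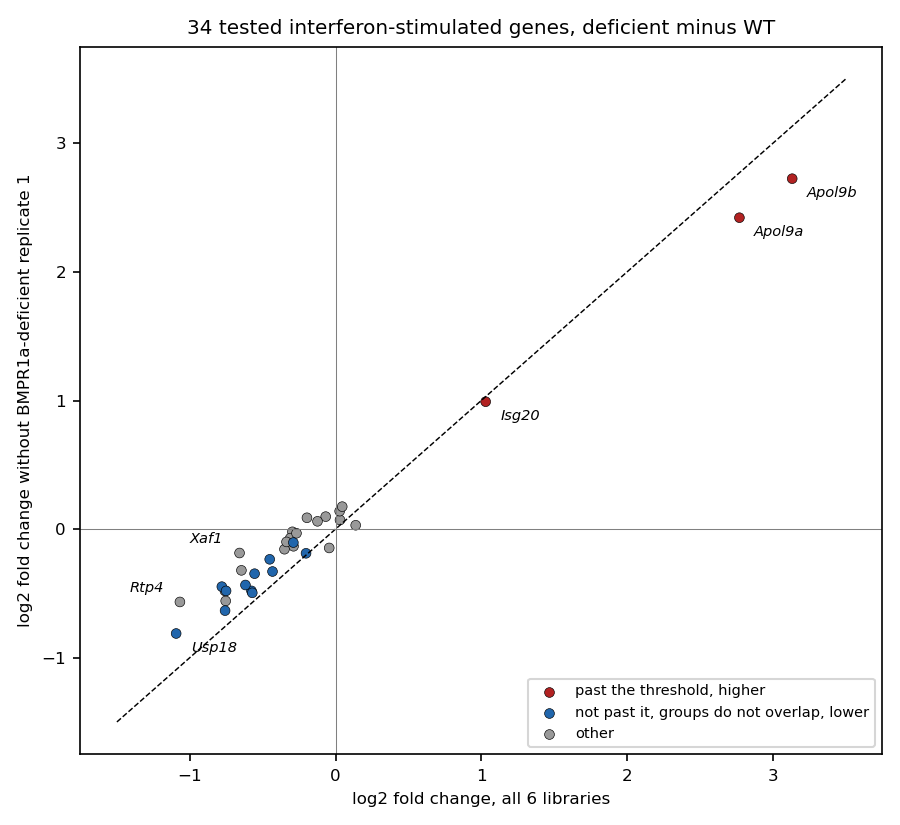
Log2 fold change (deficient minus WT, log2(FPKM + 1) scale) of the 34 tested members with all 6 libraries on the x axis and without BMPR1a-deficient replicate 1 on the y axis; the dashed line marks equal values. The 3 genes past the threshold stay well above 0 on both axes, and nearly all lower genes lie above it, closer to 0 without that library.

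Other genes of the interferon pathway, from lists of its receptors, sensors, inhibitors and further targets, had no member past the threshold in either direction in limma. Of their 99 tested genes, 4 were higher (4.04%, against 9.29% of all genes) and 8 lower (8.08%, against 5.87%) at an unadjusted limma p under 0.05. The 9 genes of the receptors and JAK-STAT kinases and factors had -0.14 as their median fold change on the log2 scale, and 0.05 without replicate 1. The receptor chains Ifnar1 and Ifnar2 were at 58.6 to 65.4 and 44.5 to 60.2 FPKM in WT. In deficient replicates 2 and 3 Ifnar1 was at 67.5 and 62.2 FPKM and Ifnar2 at 55.5 and 57.2 FPKM, so both lay in or near the WT range, and in replicate 1 they were at 41.9 and 30.6 FPKM. Ifngr1, the ligand-binding chain of the interferon gamma receptor, was at 191, 230 and 231 FPKM in WT and 49.8, 136 and 148 FPKM in the deficient libraries, apart from WT in each (log2 fold change -1.10, SE 0.423, limma adjusted p = 0.311).

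Of the interferon genes, Ifna1 and Ifnk were near 0. Ifna1 was at 0.0767 FPKM in 1 WT library and at 0 in the other libraries, and Ifnk was at 0.0453 FPKM or less. The other 8 alpha, beta, epsilon and lambda genes of the list were not found by name in the table of genes. Ifng, the interferon of T and NK cells, was at 1.47, 3.38 and 1.57 FPKM in WT and at 4.16, 5.23 and 5.64 FPKM in the deficient libraries (log2 fold change 0.98, SE 0.252, limma adjusted p = 0.160). Of 12 tested sensing genes upstream of interferon, Trim25, a ubiquitin ligase that activates RIG-I, was the one with the smallest p, at 33.99, 36.9 and 37.7 FPKM in WT and 17.4, 26.9 and 27.8 FPKM in the deficient libraries (log2 fold change -0.60, limma adjusted p = 0.241). Of 11 negative regulators Socs3, an inhibitor of cytokine receptors, was at 47.5, 29.2 and 34.8 FPKM in WT and 9.33, 24.5 and 21.1 FPKM in the deficient libraries (log2 fold change -1.06, limma adjusted p = 0.282).

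For the 52 tested members of a second list of interferon-induced genes the median log2 fold change was -0.16, with 39 negative (75.0%, against 44.5% of all genes) and 11 lower without overlap (21.2%, against 10.4%). Without replicate 1 the median was -0.02 and 28 were negative (53.8%, against 36.7%). The gene with the smallest p was Tnfsf10, which encodes the death ligand TRAIL, at 8.79, 10.2 and 6.96 FPKM in WT and at 15.8, 19.0 and 17.7 FPKM in the deficient libraries (log2 fold change 0.95, SE 0.152, limma adjusted p = 0.0580). Pml, the organiser of the nuclear bodies that also hold SP100, was at 60.5, 56.7 and 58.1 FPKM in WT and 29.8, 37.6 and 38.1 FPKM in the deficient libraries (log2 fold change -0.73, SE 0.123, limma adjusted p = 0.0657). Pml passed without replicate 1 (log2 fold change -0.61, limma adjusted p = 0.0324). Slfn8 was the third, at 10.5, 12.3 and 17.3 FPKM in WT and 6.45, 6.99 and 8.21 FPKM in the deficient libraries (limma adjusted p = 0.1503).

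The 14 tested genes of class I antigen presentation, which interferons also induce, had a median log2 fold change of 0.14, and 10 were positive (71.4%, against 55.5% of all genes). Without replicate 1 the median was 0.09 and 8 were positive (57.1%, against 63.3%), and with a GC correction the median was 0.05. Psme1, a proteasome activator subunit, had the smallest p, at 508, 516 and 502 FPKM in WT and 668, 606 and 603 FPKM in the deficient libraries (log2 fold change 0.30, limma adjusted p = 0.315). B2m, the light chain of class I molecules, was at 2980 to 3054 FPKM in WT, at 890 FPKM in deficient replicate 1 and at 2894 and 2901 FPKM in replicates 2 and 3. These medians are given side by side, and the difference between the lists was not tested.

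**Figure D5:**
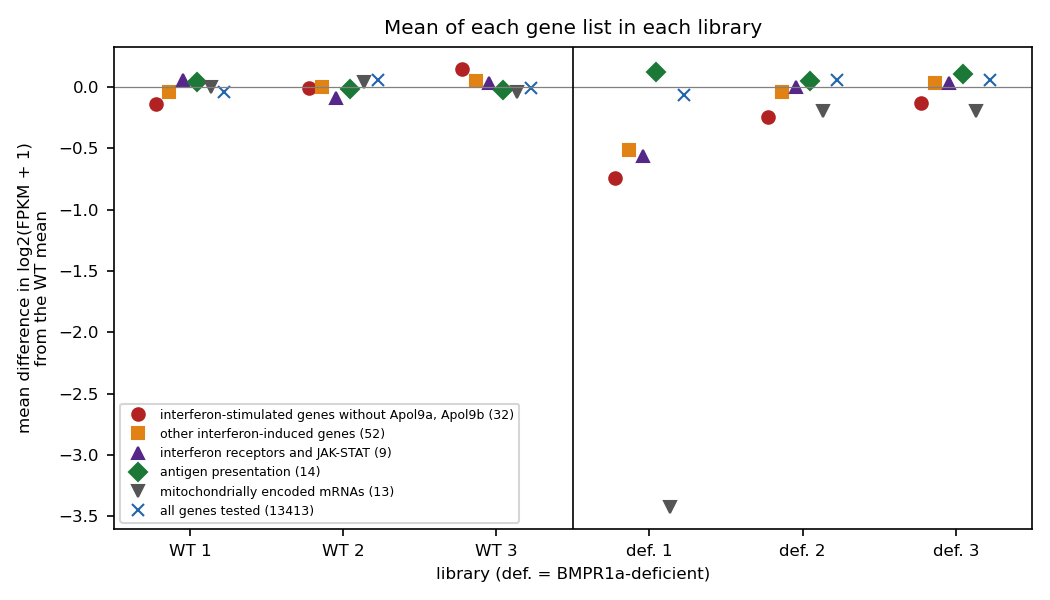
Mean difference in log2(FPKM + 1) from the WT mean of 6 gene lists in each library, with the number of tested genes in brackets. In BMPR1a-deficient replicate 1 the mitochondrial mRNAs are at -3.43 and the interferon-stimulated genes without Apol9a and Apol9b at -0.74, and in replicates 2 and 3 the latter are at -0.25 and -0.13.

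Markers of other cells were present too and differed between libraries. The 12 monocyte, macrophage and dendritic cell markers, cells with a strong interferon response, summed to 133, 32.9 and 61.4 FPKM in WT and to 18.5, 60.6 and 118 FPKM in the deficient libraries, lowest in replicate 1. Csf1r and Adgre1, which define macrophages, were at 2.20 FPKM or less. Clec9a, which defines a dendritic cell type, was at 0 in 5 libraries. Lyz2 reached 84.5 FPKM, and Mpeg1, Cd68, Cd14 and Itgam reached 15.4, 14.5, 12.8 and 5.39 FPKM. Itgax, Xcr1, Flt3 and Fcgr1 were at 0.804 FPKM or less. Siglech, which defines the interferon-producing plasmacytoid dendritic cells, was at 0.0837 FPKM or less in every library. Of the other markers of these cells, Tcf4 was at 1.16 to 1.75 FPKM in WT and 2.00 to 3.26 FPKM in the deficient libraries, and Ccr9 at 0.379 to 0.575 and 0.433 to 2.33 FPKM. The 6 markers, mostly Bst2, which is itself in the list described here, summed to 66.2, 76.3 and 65.2 FPKM in WT and 77.7, 59.7 and 70.9 FPKM in the deficient libraries. The 6 B cell markers summed to 27.9, 42.1 and 55.5 FPKM in WT and 37.7, 53.0 and 48.1 FPKM in the deficient libraries. The highest B cell sum was in WT replicate 3, and the highest monocyte, macrophage and dendritic cell sum in WT replicate 1. Cd8a and Cd8b1, which mark CD8 T cells, summed to 41.8, 32.7 and 32.0 FPKM in WT and 37.9, 44.0 and 68.4 FPKM in the deficient libraries. Cd8a alone was at 11.7, 9.56 and 8.80 FPKM in WT and 13.8, 17.2 and 29.1 FPKM in the deficient libraries. Its groups did not overlap, and those of Cd8b1 did. The neutrophil markers summed to 24.4, 1.38 and 4.24 FPKM in WT and 6.78, 48.7 and 129 FPKM in the deficient libraries. Most of this was S100a8 and S100a9, while Ly6g, Csf3r and Mpo were at 0.889 FPKM or less. Elane was at 0 in 5 libraries. The 5 NK cell markers, mostly Klrd1, which T cells can also express, summed to 72.6 to 119.5 FPKM in WT and 15.3 to 42.3 FPKM in the deficient libraries, with Ncr1 at 0 in 5 libraries. Klrb1c, another of these markers, went the other way at a low level, with 0.0692 to 0.126 FPKM in WT and 0.598 to 0.760 FPKM in the deficient libraries. The part of these cells in the values of the interferon-stimulated genes was not tested.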

How the data were processed

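RNA was sequenced from 3 WT and 3 BMPR1a-deficient aTreg samples. The deposited table holds FPKM computed by the authors, 1 column per library. TopHat2, Cufflinks and Cuffdiff with GRCm38.p4 are named per the submitters' processing notes, but for versions, settings, annotation, strand handling and scaling the sources used here give nothing. GENCODE M21 (GRCm38) named 24876 of 25759 identifiers (96.6%), and 0 columns were left unmapped.

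On log2(FPKM + 1), genes with a mean of at least 1 FPKM were compared between groups by two-sided limma tests (version 3.58.1, R 4.3.3, eBayes with trend). P-values were adjusted over all genes by Benjamini and Hochberg, with a threshold of 0.05. All 34 tested members had a mean of at least 1 FPKM in both groups. The members and lists were chosen with earlier results of these data known, so no list has a test of its own. Values in every library are given for members past the threshold or without overlap and for the highest of each role, and, in the other lists, for members with the smallest p. Ifnar1, Ifnar2 and B2m were named after their values were seen, and the values of some single genes are not reported here. Transcripts and promoter windows were paired by local alignment in Biopython 1.88. For transcripts the pair with the highest alignment score was used. Depth was estimated from 2416 single-transcript genes and is approximate. There were 17 alternatives, and a GC correction (lowess span 0.3) was chosen after seeing the data.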

Additional observations from a re-analysis of the deposited data

How the results depend on the processing

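The 16 tested members that passed the threshold, did not overlap or were the highest of their role kept their direction in all 285 values from up to 18 alternatives, where 254 also kept their side of the threshold. Apol9a, Apol9b and Isg20 lost their calls in 25 values in all, and Eif2ak2, Oas3, Samhd1 and Usp18 gained 1 or more. The median of the tested members ranged from -0.48 to -0.15 when a library was left out.

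The count of members called higher was 3 and became 2, by the loss of Apol9b, with a pseudocount of 0.1 or 0.5, upper-quartile scaling, quantile normalization or eBayes without trend. It became 1 without a filter on low values and 0 with a replicate block, and lay between 0 and 2 when a library was left out. The count called lower was 0 and became 1 with quantile normalization, 1 with the GC correction (Eif2ak2 in both) and 4 with array weights (Eif2ak2, Oas3, Samhd1 and Usp18), a fit that gave BMPR1a-deficient replicate 1 a weight of 0.117 against 0.568 to 4.18 for the others, and stayed at 0 when a library was left out. Over all genes, 100 higher and 43 lower became 833 and 407 with array weights, 202 and 94 with protein-coding genes only, and 5 and 5 with a replicate block. The lower count was also 27 with a minimum mean of 5 FPKM, 70 with quantile normalization and 66 with the GC correction. Leaving out a library gave 10 to 134 higher and 4 to 76 lower. The higher share of the calls was 69.9%, and 55.7% with quantile normalization. Other interferon pathway genes, 0 and 0, became 1 higher with quantile normalization, 1 with robust eBayes, 1 with the GC correction (Tnfsf10 in each), 1 higher and 1 lower with protein-coding genes only (Tnfsf10 and Pml), and 6 higher and 5 lower with array weights. Leaving out a library gave 0 higher and 0 to 1 lower (Pml). The cause of these shifts was not tested.

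Same-numbered WT and deficient libraries had correlations of deviations of 0.0103, 0.0645 and 0.0518, and different-numbered ones from -0.0935 to 0.0412. All of these values are small, and the numbers were not taken as pairs. If they are pairs, the block result applies (0 members, 5 higher and 5 lower genes). Mx1, Rsad2, Oas2 and Oasl1 lay under the minimum mean and have values only.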
